A study of Debaryomyces hansenii with 6 samples.

Results

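The genes described here are those of the yeast Debaryomyces hansenii whose transcripts stayed near their starting level after 0.5 h in 2 M NaCl and were raised at both 3 h and 6 h. They number 57 of the 6320 genes on the array, or 0.902%. A gene was chosen when its mean log2 ratio of salt-stressed over control RNA lay above -0.4 and below 0.5 at 0.5 h, was at least 0.8 at 3 h and at 6 h, and was above 0 on each array of the later times. The measured ratios of all 6 arrays therefore chose the genes, and the levels given below against time 0 describe that choice and test nothing.

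The stressed groups were cells held for 0.5, 3 or 6 h in 2 M NaCl, and the control in every case was an aliquot of cells taken at time 0. All cells were grown in batch culture in the rich medium YPD to early log phase, and the sources used here do not name the strain. Each time was read on a pair of two-colour arrays, which the labels give as separate biological replicates: replicate 1 carried the stressed RNA in Cy5 and replicate 2 carried it in Cy3, so that dye and replicate cannot be told apart. None of the samples analysed here is an unstressed culture of the later times, so a late rise can come with the salt or with time in culture, and these cannot be told apart. In RNA from whole cultures, a change in the make-up of the population and a change within each cell cannot be told apart either.

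D. hansenii is a salt-tolerant yeast found in seawater, brines and cheese. Like other yeasts it answers high external osmolarity by building up glycerol, a compatible solute that restores the water balance of the cell, and it handles sodium by membrane transport. In Saccharomyces cerevisiae an osmotic shock sets off a fast and mostly transient wave of transcription through the HOG kinase pathway, followed by a later phase in which cells have adapted and resume growth. The array files describe none of the genes by function, and the reference table gives the chosen genes no symbol beyond the locus name. The genes are therefore given by locus name, which 52 of the 57 had, and no role is assigned to any of them.

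The share of probes well above background ran from 76.4% to 91.9% for stressed RNA, and from 62.4% to 93.4% for the control. The number of arrays, 2 per time, limits the precision of every value. Both 3 h arrays stood apart. On the 3 h array of replicate 1 the spike-in transcripts, added in known mixtures, spanned 1.66 on the log2 scale, against 3.18 to 4.18 on the other 5 arrays. Whether its ratios are compressed was not tested here. The members' 3 h median and the number of genes that met the rule are given with and without it.

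Across the 57 genes the median log2 ratio stood at 0.30 after 0.5 h, 1.18 after 3 h and 1.14 after 6 h, which for the later times is 2.26-fold and 2.20-fold. The 3 h means ran from 0.81 to 2.54 (1.75-fold to 5.80-fold) and the 6 h means, over the 55 genes with a control above background on at least 1 array at 6 h, from 0.82 to 2.60. A mean of at least 1, a doubling, was reached by 41 genes at 3 h and 40 at 6 h, and a mean of at least 2 by 4 and 2 genes. The late rise was thus mostly of moderate size. Over all genes of the array the medians were near 0 at each time, at -0.0024, -0.0043 and -0.0055.

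By array, the members' median log2 ratio was 0.26 in replicate 1 and 0.25 in replicate 2 at 0.5 h. It was 1.03 and 1.61 at 3 h, and 1.05 and 1.29 at 6 h. Replicate 2 was the higher of the pair for 49 of the 57 genes at 3 h and for 42 at 6 h, against 31 at 0.5 h. Without the 3 h array of replicate 1, the 3 h median is the 1.61 of replicate 2 alone. Without that of replicate 2, it is the 1.03 of replicate 1 alone.

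**Figure D1:**
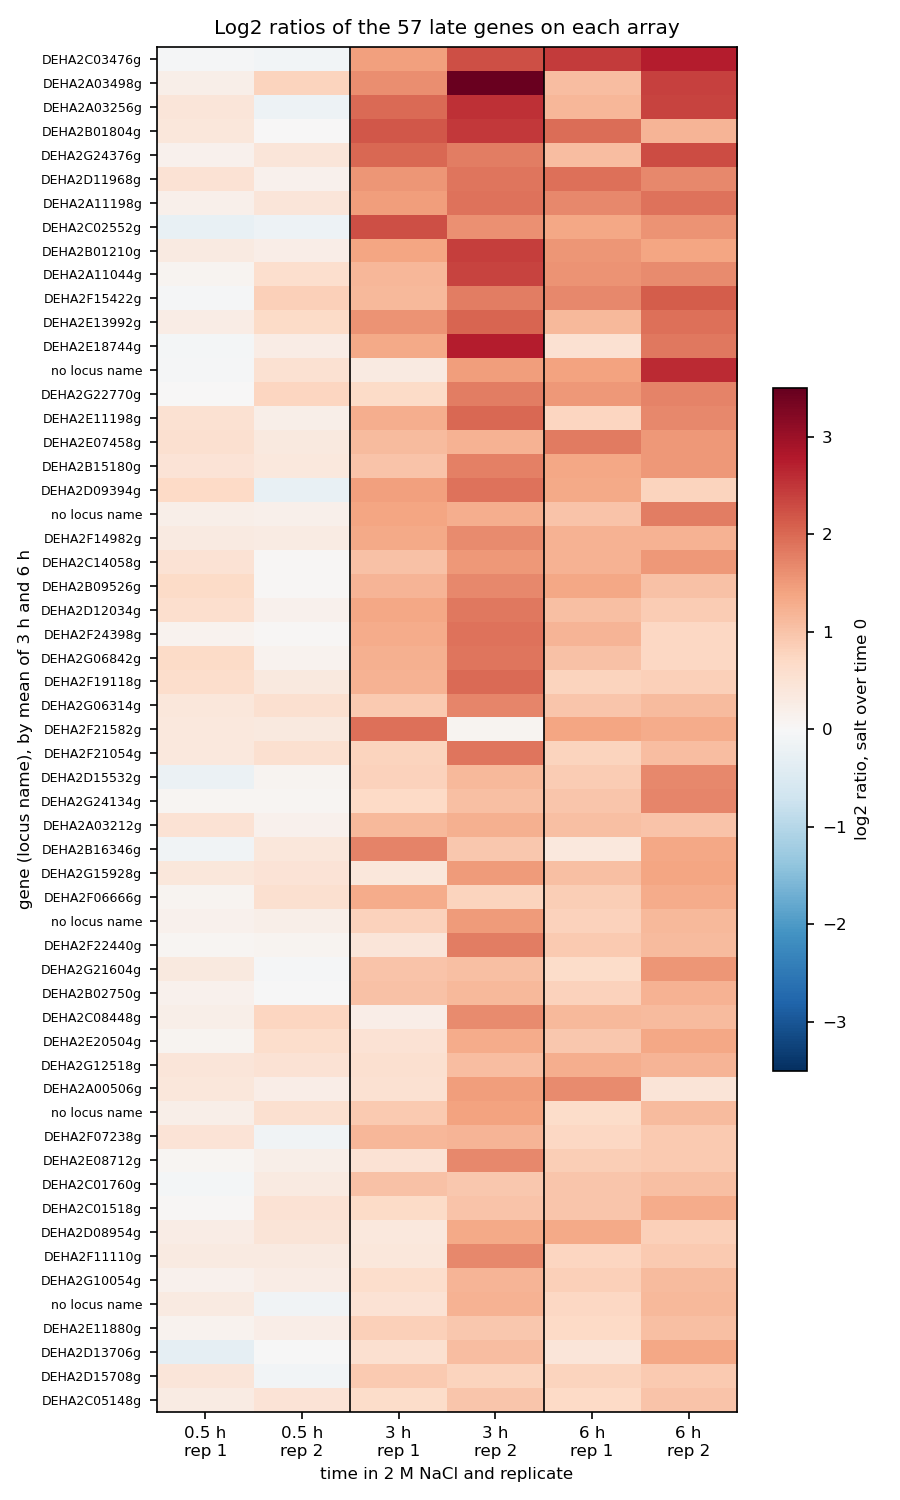
Log2 ratios of stressed over time-0 RNA for each of the 57 genes (rows, from the highest to the lowest mean of 3 h and 6 h) on each of the 6 arrays (columns, by time and replicate), on a colour scale from blue (lower in salt) to red (higher in salt). All values in the columns of 3 h and 6 h are above 0, but some are as pale as those of 0.5 h, down to 0.09. The 0.5 h columns are pale, with values up to 0.70 in replicate 1 and 0.85 in replicate 2.

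The later arrays were set beside the early ones gene by gene. In 49 of the 57 genes the lowest of the 4 later arrays lay above both 0.5 h arrays, as it did in 8.66% of all genes. The rule used these values, so nothing is read from that count. In the other 8 the later and the early arrays overlapped, and in 6 of these the lowest later array was the 3 h array of replicate 1, the one with the narrow spike-in span. All 4 later arrays reached 0.8 in 23 genes and 1 in 17 genes. The early condition held less evenly than the means show: both 0.5 h arrays lay within the bounds of -0.4 and 0.5 in 35 of the 57, while 9 genes reached 0.5 on the array of replicate 1 and 13 on that of replicate 2. At 0.5 h the mean was above 0 for 53 of the 57 genes, against 49.5% of the 5834 genes whose 0.5 h mean lay within the same bounds. The chosen genes thus lay mostly above their control level at 0.5 h, within the bounds that chose them. This was not particular to them. Under the same 0.5 h bounds, genes raised at 3 h with a 6 h mean under 0.8 had a 0.5 h median of 0.26. Those raised at 6 h with a 3 h mean under 0.8 had 0.23, against 0.30 in the 57.

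Since the ratios of both replicates entered the choice, the same bounds were also applied to the arrays of 1 replicate alone and the genes so chosen were read on the other. This reading was added after the data were seen. The second replicate had no part in the choice, but the labels do not say whether its arrays shared control RNA with those of the first. The arrays of replicate 1 gave 44 genes, 21 of them among the 57. On replicate 2, 36 of these 44, or 81.8%, were at or above 0.8 at both 3 h and 6 h, against 3.7% of all genes. A ratio above 0 at both later times was found for 43 of the 44 on replicate 2, against 34.5% of all genes. Their median log2 ratio on replicate 2 was 1.88 at 3 h and 1.80 at 6 h.

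The early level was less repeatable. The same 44 genes had a median of 0.60 at 0.5 h on replicate 2, and 25 of them were at or above 0.5 there, against 6.2% of all genes. In all, 13 of the 44 met the whole set of bounds on replicate 2. Most genes that looked late on replicate 1 were thus already raised at 0.5 h on replicate 2.

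In the other direction, the arrays of replicate 2 gave 84 genes, 38 of them among the 57. On replicate 1, 25 of the 84, or 29.8%, were at or above 0.8 at both later times, against 1.69% of all genes. A ratio above 0 at both times was found for 80 of the 84, against 32.7% of all genes. Their medians on replicate 1 were 0.24 at 0.5 h, 0.66 at 3 h and 0.85 at 6 h, and 18 of them were at or above 0.5 at 0.5 h, against 4.27% of all genes. The direction of the late rise was therefore shared by the replicates for 43 of 44 and 80 of 84 genes, while its size and its late onset were shared by fewer. No test was attached to these counts, since genes are not independent replicates. A bound of 0.8 is also not an equal cut on the 2 replicates. Over all genes the SD of the log2 ratios at 3 h was 0.38 in replicate 1 and 0.61 in replicate 2. At 6 h it was 0.41 and 0.55. No correction was made for this difference in scale.

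**Figure D2:**
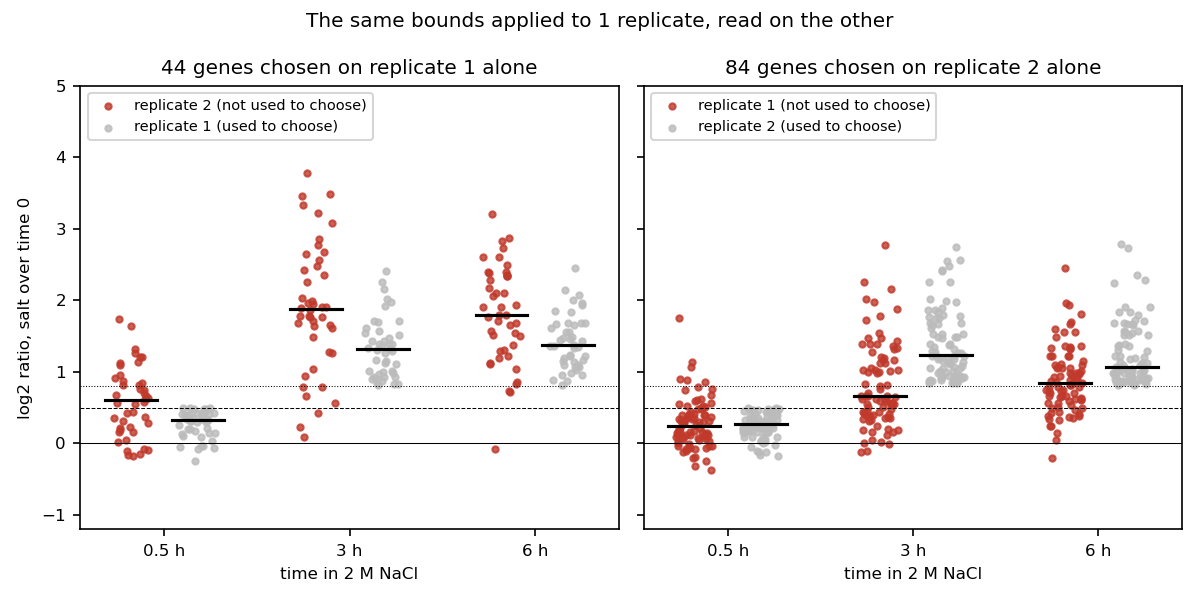
Log2 ratios at 0.5, 3 and 6 h of the genes that meet the bounds on replicate 1 alone (left, 44 genes) or on replicate 2 alone (right, 84 genes). Red points are the replicate not used in the choice, grey points the replicate used, black bars the medians, and the dashed and dotted lines 0.5 and 0.8. On the left the red points at 0.5 h have a median of 0.60, above the dashed line, and on the right the red points at 3 h have a median of 0.66, below the dotted line.

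DEHA2C03476g had the highest mean of 3 h and 6 h of the 57. Its log2 ratio was -0.04 and -0.11 on the 0.5 h arrays of replicates 1 and 2, 1.43 and 2.25 on the 3 h arrays, and 2.46 and 2.74 on the 6 h arrays. The gene lay just under its control level at 0.5 h and both 6 h arrays were above both 3 h arrays. Its mean was 1.84 ± 0.58 at 3 h (SD, n = 2), or 3.58-fold, and 2.60 ± 0.20 at 6 h, or 6.05-fold. Its control signal was well above background on 1 of the 2 arrays at 3 h. It met the rule in each of the 11 other settings of processing and of arrays in which the rule was applied again. All of these settings reuse arrays that chose the gene, so this only describes how the choice depends on them.

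DEHA2A03498g had the highest 3 h mean of the 57. Its log2 ratio was 0.20 and 0.77 at 0.5 h, 1.61 and 3.46 at 3 h, and 1.09 and 2.38 at 6 h. Replicate 2 was the higher at every time, and the 3 h and 6 h arrays overlapped. The means were 2.54 ± 1.31 at 3 h (5.80-fold) and 1.74 ± 0.92 at 6 h (3.33-fold; SD, n = 2 each), so the spread between replicates was large beside any difference between the later times. At 3 h its control signal was well above background on 1 of 2 arrays, which makes its 3 h ratio less certain.

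DEHA2A03256g had log2 ratios of 0.42 and -0.17 at 0.5 h, 1.97 and 2.56 at 3 h, and 1.16 and 2.36 at 6 h. The later arrays all lay above the early ones. Its means were 2.27 ± 0.42 and 1.76 ± 0.85 (SD, n = 2 each), and its control signal was among the 4 dimmest of the members with a locus name.

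DEHA2B01804g combined a large rise with a bright spot. Its log2 ratio was 0.40 and 0.01 at 0.5 h, 2.16 and 2.48 at 3 h, and 1.96 and 1.20 at 6 h. Here the 3 h arrays both lay above the 6 h arrays. The means were 2.32 ± 0.22 at 3 h (5.00-fold) and 1.58 ± 0.54 at 6 h (2.98-fold; SD, n = 2 each). The stressed spots, before any correction, read 6050 and 5439 at 3 h and 10093 and 9505 at 6 h, well above background.

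DEHA2G24376g had log2 ratios of 0.14 and 0.43 at 0.5 h, 2.02 and 1.78 at 3 h, and 1.09 and 2.28 at 6 h. The 3 h arrays lay close together while those of 6 h were apart, and the times overlapped. Its means were 1.90 ± 0.17 and 1.69 ± 0.84 (SD, n = 2 each).

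DEHA2D11968g and DEHA2A11198g held a nearly level plateau under the normalization used here. The log2 ratio of DEHA2D11968g was 0.50 and 0.15 at 0.5 h, 1.55 and 1.87 at 3 h, and 1.94 and 1.69 at 6 h. That of DEHA2A11198g was 0.17 and 0.43 at 0.5 h, 1.48 and 1.89 at 3 h, and 1.68 and 1.90 at 6 h. In both genes the arrays of the later times overlapped and the replicates were close. The means of DEHA2D11968g were 1.71 ± 0.23 and 1.81 ± 0.18, and those of DEHA2A11198g were 1.68 ± 0.29 and 1.79 ± 0.16 (SD, n = 2 each). With each array centred on its median instead, the means of DEHA2D11968g were 1.33 at 3 h and 2.25 at 6 h. Those of DEHA2A11198g were then 1.47 and 2.12, so the plateau depends on the normalization.

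DEHA2C02552g had the lowest 0.5 h mean of the 57, at -0.22 ± 0.049 (SD, n = 2). Its log2 ratio was -0.25 and -0.18 at 0.5 h, 2.25 and 1.61 at 3 h, and 1.35 and 1.57 at 6 h. Both early arrays were below 0, and both 6 h arrays lay below both 3 h arrays. Its means were 1.93 ± 0.46 at 3 h and 1.46 ± 0.16 at 6 h. Like DEHA2C03476g and DEHA2A03256g it met the rule in all 11 other settings.

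**Figure D3:**
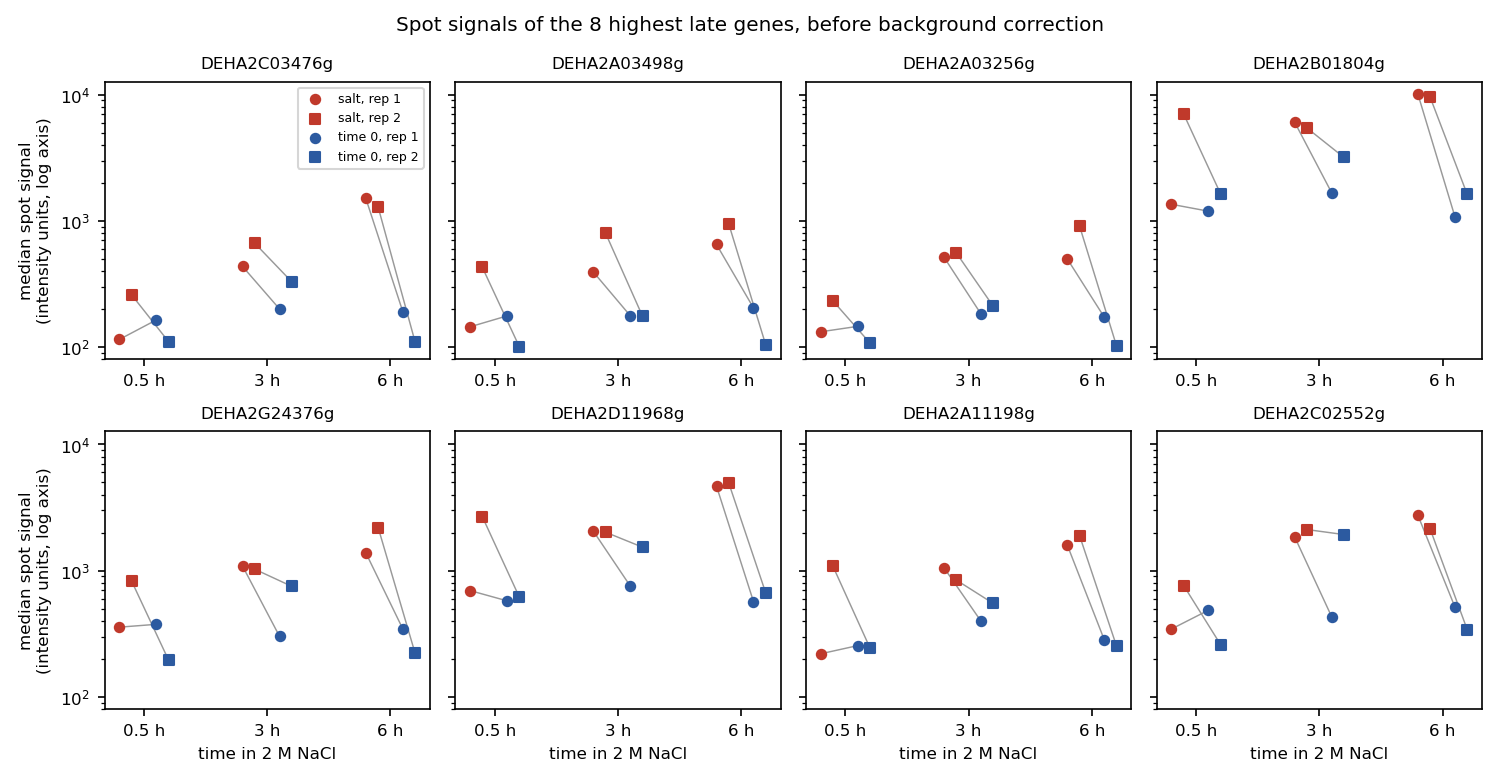
Median spot signals, on a log axis and before background correction and dye normalization, of the 8 named genes with the highest late means, with the salt-stressed RNA (red) left of the time-0 RNA (blue) at each time. Circles are replicate 1 and squares replicate 2, and a line joins the 2 channels of an array. The salt signal is the higher on all the 3 h and 6 h arrays and on the 0.5 h array of replicate 2, and is not the higher on the 0.5 h array of replicate 1 for 6 of the 8 genes.

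The uncorrected signals in that plot are not on one scale, because Cy5 and Cy3 differ in brightness from array to array. DEHA2C02552g read 2116 in the stressed and 1931 in the control channel on the 3 h array of replicate 2, and 760.2 and 258.2 on the 0.5 h array of that replicate. After loess, which removes the dye difference at each brightness, the log2 ratios of these arrays were 1.61 and -0.18. The chosen genes therefore rest on that step: when each array was centred on its median instead, 33 genes met the rule and 22 of the 57 were among them. The members' medians were then 0.50 at 0.5 h, 0.97 at 3 h and 1.43 at 6 h, all above 0. After loess the 3 h and 6 h medians were 1.18 and 1.14, so the order of the later times depended on that step. With centring DEHA2C02552g read 1.59 at 3 h and 1.83 at 6 h, the reverse of its order after loess. DEHA2A03256g, at 2.20 and 1.98, kept its order.

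The other named genes differed chiefly in how well the replicates matched. The closest replicates were those of DEHA2A03212g, with log2 ratios of 1.12 and 1.23 at 3 h and 1.05 and 1.00 at 6 h. DEHA2C01760g was as even, at 1.02 and 0.94 at 3 h and 0.96 and 1.04 at 6 h. In both genes the ratio after loess was close to a doubling at both times. With centring on the median, DEHA2A03212g had means of 0.91 at 3 h and 1.38 at 6 h, and DEHA2C01760g of 0.49 and 1.46. DEHA2F07238g (1.17 and 1.18 at 3 h, 0.74 and 0.90 at 6 h) and DEHA2D15708g (0.91 and 0.78, then 0.79 and 0.92) completed the group with the closest replicates.

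At the other end, DEHA2F21582g read 1.92 and 0.09 at 3 h and 1.37 and 1.31 at 6 h. Its membership at 3 h rests on replicate 1, the array on which the spike-in span was narrow, since replicate 2 hardly differed from its control. DEHA2A00506g read 0.54 and 1.46 at 3 h and 1.65 and 0.44 at 6 h, so that each replicate gave a different later time as the higher. With DEHA2A03498g, described above, these form the group with the widest replicates. DEHA2E18744g, also in it, read 1.32 and 2.75 at 3 h and 0.53 and 1.84 at 6 h, with replicate 2 the higher at both times. For these 4 genes the late mean is uncertain, with SDs from 0.65 to 1.31 at 3 h. Ranks, bounds, shared probes and neighbours together single out 32 of the 57. The remaining 25 had means from 0.84 to 1.91 at 3 h and from 0.86 to 2.01 at 6 h.

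The 6 h and 3 h levels of the members were set against each other as a description. The rule used both, and by asking for 0.8 at each it kept out genes high at only 1 of them, so no test is attached to the members' differences. DEHA2F19118g and DEHA2F22440g are left out, since their control was not well above background on either 6 h array. Of the other 55 genes, 28 had a higher and 27 a lower mean at 6 h than at 3 h, with a median difference of 0.0054. These are differences after loess, and the order of 3 h and 6 h in a gene can depend on that step. Over the 5966 genes tested, limma called 0 genes between 6 h and 3 h (0% in each direction), with 4.73% higher and 4.46% lower at an unadjusted p under 0.05.

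Arrays with the same replicate number tend to deviate together, so the difference was also taken within each replicate, a reading added after the data were seen. It was above 0 in both replicates for 11 of the 55, where 30.9% of all genes were, and below 0 in both for 16, where 31.1% were. In the other 28 the replicates differed in direction. Without pairing, both 6 h arrays lay above both 3 h arrays in 3 of the 55 and below them in 9, where 19.4% and 19.9% of all genes did, and 43 overlapped. Since the rule limited these differences, nothing is read from the counts against all genes.

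The highest difference, 1.11 ± 0.50 (SE of the limma fit), belonged to a gene with no locus name, which read 1.40 and 2.62 at 6 h, against 0.32 and 1.47 at 3 h. It was higher at 6 h by 1.08 within replicate 1 and by 1.15 within replicate 2, although the arrays of the 2 times overlapped. DEHA2C03476g read 2.46 and 2.74 at 6 h, against 1.43 and 2.25 at 3 h, a difference of 0.76 ± 0.28 (SE). DEHA2E07458g read 1.81 and 1.52 at 6 h, against 1.12 and 1.23 at 3 h, a difference of 0.49 ± 0.18 (SE). In DEHA2C03476g and DEHA2E07458g the 6 h arrays lay above the 3 h arrays. DEHA2G24134g and DEHA2F15422g had differences of 0.47 ± 0.27 and 0.45 ± 0.35 (SE), higher at 6 h within both replicates while the arrays of the times overlapped.

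The lowest difference was that of DEHA2E18744g, at -0.85 ± 0.55 (SE), which was -0.79 within replicate 1 and -0.91 within replicate 2. DEHA2A03498g followed at -0.80 ± 0.65 (SE), with -0.52 and -1.08 within the replicates. Both genes were lower at 6 h in each replicate, while their arrays overlapped between the times. DEHA2B01804g had a difference of -0.74 ± 0.29 (SE), and both of its 6 h arrays lay below both 3 h arrays. With centring on the median in place of loess, its means were 1.69 at 3 h and 2.12 at 6 h, the reverse order. DEHA2E18744g (1.95 and 1.41) and DEHA2A03498g (2.46 and 1.99) stayed lower at 6 h with centring.

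**Figure D4:**
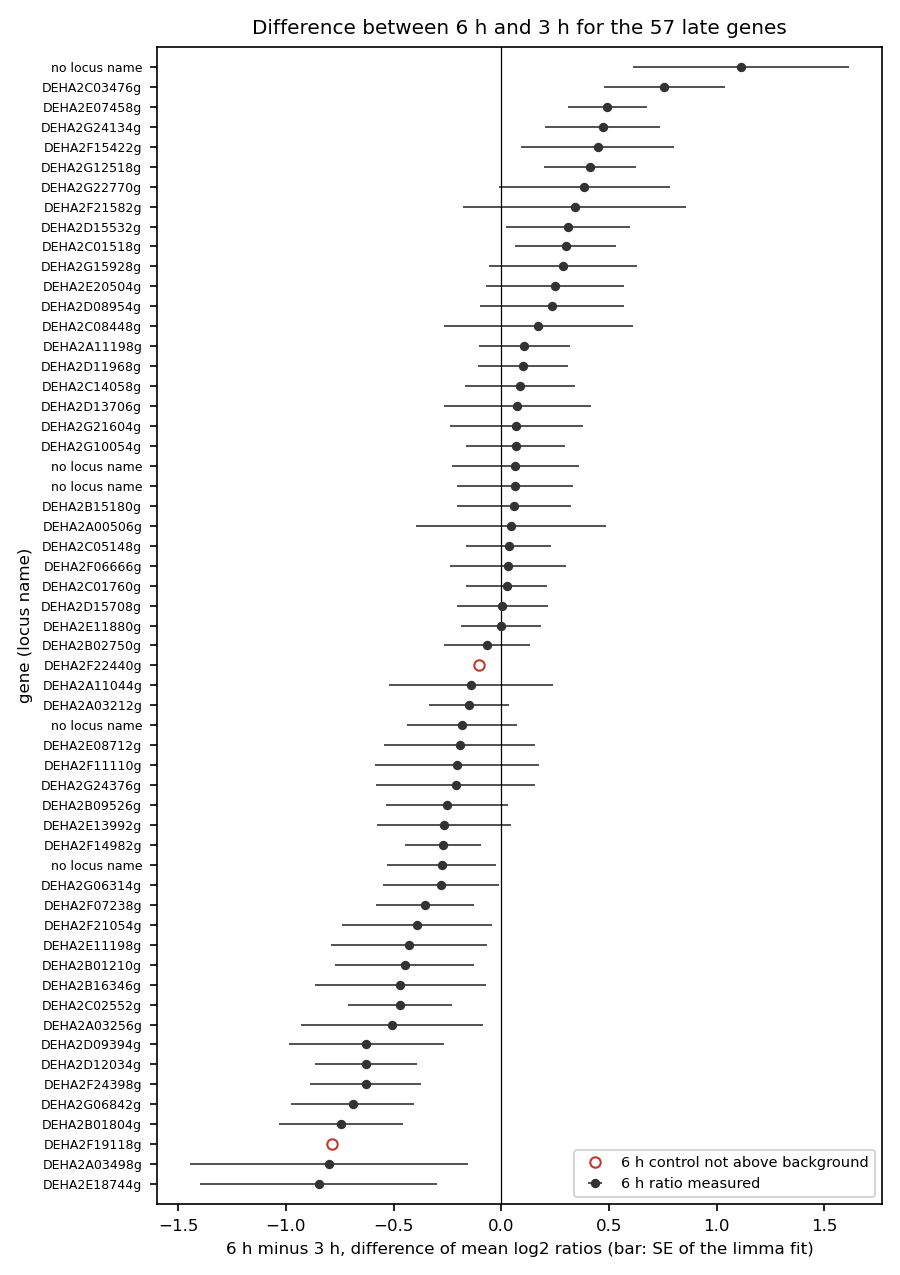
Difference of mean log2 ratios, 6 h minus 3 h, for each of the 57 genes (rows, from the highest at the top to the lowest), with bars of 1 SE from the limma fit. Filled points, the 55 genes with a control above background on at least 1 array at 6 h, run from 1.11 to -0.85, with 28 above 0 and 27 below, and the 2 open red circles are genes whose 6 h ratio is a lower bound and cannot be placed.

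Against time 0, in a limma fit over all arrays, 44 of the 57 passed an adjusted p of 0.05 at 3 h, where 3.74% of all genes tested passed as higher, and 44 passed at 6 h, where 4.78% did. Both times were passed by 38, where 2.18% of all genes did, and 7 passed at neither time. At 0.5 h, where 0.0335% of genes passed as higher, the count among the members was 0 in limma (7 at an unadjusted p under 0.05). No member passed as lower, where 0.0503% of genes did at 0.5 h, 2.21% at 3 h and 2.67% at 6 h. The rule used these contrasts, so nothing is read from the counts, which only show that 19 of the 57 late genes did not pass at both times with 2 arrays each. With the replicate number as a block, 854 genes passed at 3 h in place of 355 and 735 at 6 h in place of 444. Of the 57, 52 then passed at both times, a count for which the share of all genes was not taken. All 57 were among the genes tested.

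The control level at time 0 is not part of the rule, though it is the denominator of each ratio. As the mean log2 control signal after normalization it ran from 6.17 to 11.42 over the 57 genes, with a median of 8.12, against 7.28 over all genes. Of the 57, 17 lay below the all-gene median. These are spot brightnesses of different probes, which do not compare the abundance of one transcript with that of another. They show how far the signals of each gene stood above background.

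The brightest controls were those of DEHA2D12034g, DEHA2F24398g, DEHA2B01804g and DEHA2F14982g, at log2 signals between 10.67 and 11.42. DEHA2F24398g read 0.13 and 0.04 at 0.5 h, 1.29 and 1.91 at 3 h, and 1.20 and 0.74 at 6 h. DEHA2F14982g read 0.32 and 0.28 at 0.5 h, 1.33 and 1.65 at 3 h, and 1.22 and 1.22 at 6 h. In both genes the 6 h arrays lay below the 3 h arrays, without a called difference. With centring on the median in place of loess, the means of DEHA2F14982g were 0.95 at 3 h and 1.72 at 6 h, the reverse order.

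The dimmest controls were those of DEHA2F19118g, DEHA2F22440g, DEHA2E11880g and DEHA2A03256g, at log2 signals from 6.17 to 6.86. In DEHA2F19118g and DEHA2F22440g neither probe was well above background in the control on either 6 h array, so their 6 h ratio is a lower bound and the ratios computed for them at 6 h are not exact. Set against the faintest signal that counts as well above background, the stressed signal at 6 h was at least 1.54-fold higher in DEHA2F19118g and at least 2.01-fold higher in DEHA2F22440g. For DEHA2F19118g that bound alone falls short of the level the rule asks for at 6 h. The control of these genes was not well above background on either 0.5 h array. DEHA2F22440g had a stressed signal well above background on only 1 of those arrays. Their computed 0.5 h means, 0.47 for DEHA2F19118g and 0.07 for DEHA2F22440g, are therefore not exact. That they lay under the upper 0.5 h bound is not established. At 3 h DEHA2F22440g read 0.43 and 1.80, a wide spread. Over the 57 genes, 46 had a control signal well above background on all 6 arrays, and all 57 had a stressed signal well above background on all 4 later arrays. No spot of these genes was saturated or marked as an outlier.

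Each gene was read by 2 probes of different sequence, and the rule took their mean. Both probes were above 0 at 3 h and at 6 h in all 57 genes. Both reached 0.8 in 48 genes at 3 h, in 52 at 6 h and in 45 at both times. The median gap between the 2 probes was 0.16 at 3 h and 0.069 at 6 h, against 0.13 and 0.11 over all genes. The widest gap at 3 h, 1.97, was that of DEHA2D12034g.

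DEHA2D12034g is a member whose level depends on the probe. The mean of its probes read 0.59 and 0.16 at 0.5 h, 1.36 and 1.84 at 3 h, and 1.06 and 0.88 at 6 h. One of its probes read 0.94 at 0.5 h, 2.58 at 3 h and 1.69 at 6 h, and the other -0.20, 0.61 and 0.25. The first shares a run of 47 bases with a probe of DEHA2B15268g, and the second a run of 29. DEHA2B15268g, which was raised already at 0.5 h (1.16 and 0.66) and is no member, had log2 ratios of 2.08 and 3.08 at 3 h and 1.58 and 1.88 at 6 h, with a mean of 2.58 at 3 h. Neither probe alone would meet the rule: the first exceeds the 0.5 h bound, and the second misses the bound at both later times. Signal from these 2 loci cannot be told apart on the sharing probes.

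Another pair of members, DEHA2D11968g and DEHA2B15180g, also share a run of 29 bases between a probe of each. DEHA2B15180g read 0.48 and 0.37 at 0.5 h, 0.99 and 1.77 at 3 h, and 1.36 and 1.52 at 6 h. In the order of protein-coding loci, DEHA2D11968g and DEHA2D12034g lie 3 steps apart on chromosome D, and DEHA2B15180g and DEHA2B15268g lie 4 steps apart on chromosome B. The loci that share probe sequence thus lie in 2 neighbourhoods, each with 1 locus of each pair, and all 4 loci were above 1 in mean log2 ratio at 3 h. DEHA2D12034g was so only through its probe with the run of 47 bases, at 2.58, while its other probe read 0.61. The other probe of DEHA2D11968g and that of DEHA2B15180g, which share fewer than 20 bases with any other gene's probe, read 1.74 and 1.40 at 3 h, close to the 1.68 and 1.36 of the sharing probes. Among the 114 probes of the 57 genes these 4 were the ones with a shared run of 20 bases or more.

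The 52 genes with a locus name were spread over all chromosomes, A to G, with between 6 and 10 on each. Chromosome F held 10 of them, or 19.2%, against 18.7% of all matched genes, and chromosome E 7, or 13.5%, against 16.4%. No member lay directly beside another. The closest were DEHA2A03212g and DEHA2A03256g, 2 steps apart, followed by the pair on chromosome D. The array had 79 other genes directly beside a member, with a median log2 ratio of 0.045 at 3 h and 0.016 at 6 h, against -0.0027 and -0.0014 over the 5296 matched genes that were not members. Of the 79, 41.8% were above 0 at both later times, against 32.9%, and 4, or 5.06%, reached 0.5 at both, against 4.93%.

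DEHA2D09394g was flanked by raised genes on both sides. Its own log2 ratio was 0.70 and -0.26 at 0.5 h, 1.44 and 1.91 at 3 h, and 1.33 and 0.77 at 6 h. DEHA2D09372g, just before it, read 0.59 and 0.92 at 3 h and 0.85 and 0.89 at 6 h, and its 3 h mean of 0.75 kept it out of the chosen genes. DEHA2D09416g, just after it, read 1.61 and 2.72 at 3 h and 1.67 and 2.31 at 6 h, and its 0.5 h mean of 1.06 kept it out. The 3 loci were named for this after their values were seen.

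Genes with nearly the same course lay outside the bounds. Measured as the root mean square distance over the 6 arrays from the members' median profile, the nearest genes that were not members were DEHA2G04268g (0.26), DEHA2G15444g (0.28), DEHA2B09350g (0.31) and DEHA2G03718g (0.31). DEHA2G04268g read 0.54 and 0.67 at 0.5 h, 1.09 and 1.72 at 3 h, and 1.13 and 1.67 at 6 h, so that the 0.5 h bound alone separated it from the 57. DEHA2B09350g missed at 6 h, with a mean of 0.79.

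The bounds cut through a continuous distribution. Just inside the 3 h bound lay DEHA2C05148g, DEHA2D13706g and DEHA2G12518g, with means of 0.811 to 0.820, and just outside it, with every other condition met, DEHA2F01232g, DEHA2A04642g and DEHA2F08360g, at 0.790 to 0.797. At 6 h the nearest inside with a measured ratio were DEHA2F07238g and DEHA2F11110g, at 0.820 and 0.839, and DEHA2F19118g, with its control not above background, cannot be placed against the bound. The nearest outside ran from 0.789 to 0.795. At the upper 0.5 h bound the nearest members ran from 0.477 to 0.482 and the nearest others from 0.501 to 0.507. No named gene that met the later conditions lay at or below -0.4 at 0.5 h.

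Genes raised at 0.5 h as well as later were more numerous. With a 0.5 h mean of at least 0.5 and the same later conditions, 111 genes were found, with medians of 0.81 at 0.5 h, 1.60 at 3 h and 1.82 at 6 h. With the 0.5 h bounds kept, 78 genes were raised at 3 h with a 6 h mean under 0.8, and 92 at 6 h with a 3 h mean under 0.8. All these groups were cut from the same arrays, so the differences between them are descriptions.

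The authors' deposited table of log2 ratios gave smaller values for these genes. In the authors' deposited table the 57 had a median of 1.08 at 3 h and 0.97 at 6 h, lower than the values used here in 56 and 57 genes. All 57 were above 0 on the 4 later arrays of the authors' deposited table, and 34 kept a mean of at least 0.8 at both times. That table comes from the same arrays that chose the genes, and the shares of all genes were not taken. Nothing is therefore read from these counts.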

How the data were processed

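Per the file headers, the authors' 6 Agilent two-colour arrays were read by Feature Extraction 9.1.3.1. From these deposited scanner files the intensities taken were median spot and local background signals in Cy3 and Cy5. The authors' deposited table holds log2 ratios, whose scale and direction were read off by setting it against the scanner values; the submitters' processing notes name limma, and no source used here gives the normalization behind the table. Its rows were matched to genes by probe number.

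Signals were corrected by normexp (offset 50) and then by within-array loess (limma 3.58.1 under R 4.3.3). Control spots had weight 0, and 18 outlier spots were dropped. Ratios were turned to stressed over control by the labelled dyes and averaged over a gene's probes. The test took the 5966 genes with a probe well above background in 2 or more of its 12 channel readings. One lmFit and eBayes fit over all arrays had a coefficient per time, with Benjamini-Hochberg adjustment, and was checked on simulated data. The simulated noise was drawn independently for each array, so that check does not cover arrays that deviate together. Which arrays share a culture or control is not in the labels, and p-values measure the spread between 2 arrays per time. Arrays with the same replicate number deviated together (r = 0.21, 0.31 and 0.35 across genes), so the replicate block is given beside the counts it moves. It is also the dye split.

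Locus names came for 5348 genes from RefSeq (assembly ASM644v2), by accession without version. That source gave names and locus order alone. The members, the bounds and the lists were chosen with earlier results of these data known. Named genes followed ranks among members with a locus name: the 8 highest late means, the 4 highest and lowest 6 h minus 3 h differences, the 4 with the closest and farthest replicates, the 4 brightest and dimmest controls, those nearest each bound, neighbours and the 4 most similar other genes. The comparisons by shared probe bases and by neighbouring loci were chosen after the data were seen. Lists by function could not be applied, since no gene had a description, and protein sequences were not used here.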

Additional observations from a re-analysis of the deposited data

How the results depend on the processing

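None of the 104 late means of the 52 members with a locus name changed sign under the 5 other ways of processing the signals (no background correction, centring, processed signals, deposited table, brighter probe). These ways reread the same spots that chose the genes for means of at least 0.8, so nothing is read from the unchanged signs. With 1 array left out or the replicate block the late means stay above 0 by construction, and the other settings do not alter them. The rule gave 57 genes. Centring on the median gave 33, and the other 4 ways of processing gave 38 to 84. Leaving out 1 array gave 42 to 84 genes, with 38 to 54 of the 57 among them. The 3 h array of replicate 1, the one with the narrow spike-in span, gave the 84 when it was left out, 54 of them among the 57. Without the 3 h array of replicate 2, the one with the widest gene ratios, the rule gave 42, 38 of them among the 57. The share of all genes passing at both later times was taken for the main fit only. Nothing is therefore read from the counts of passing members in other settings. Members passing at both later times numbered 38 in the main fit, where 2.18% of all genes did. They were 10 with no background correction, 9 with the deposited table, 0 with a trended and robust moderation in limma (57 at an unadjusted p under 0.05), and 0 to 48 with 1 array left out. The lowest, 0, came without the 6 h array of replicate 2 (46 unadjusted), then 7 without the 3 h array of replicate 2, 14 without the 6 h array of replicate 1, and 20 without either 0.5 h array.

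Over all genes, calls at 0.5 h (5) were 1 with no background correction or the deposited table, 3 with processed signals or trended moderation, 17 with the replicate block and 0 to 7 with 1 array left out (the 0 without the 0.5 h array of replicate 1, with 295 unadjusted). Calls at 3 h (355) were 57 with no background correction, 234 with centring, 231 with processed signals, 44 with the deposited table, 0 with trended moderation (1777 unadjusted), 854 with the replicate block and 28 to 1025 with 1 array left out. Calls at 6 h (444, 285 higher) were 255 with no background correction, 236 with the deposited table, 185 with trended moderation, 735 with the replicate block and 0 to 769 with 1 array left out (the 0 without the 6 h array of replicate 2, with 662 unadjusted), and centring gave 462, of which 412 were higher. Between 6 h and 3 h, limma called 0 genes (548 unadjusted), 1 with centring and 4 with trended moderation. The causes were not tested.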
